A study of Mus musculus with 23 samples.

Results

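The 5 Rbm33 bins are the stretch of chromosome 5 from 28632087 to 28737087 (mm9), 105 kb that hold the body of the gene Rbm33, just before the left edge of the Shh domain. They were defined by position, as bins 15 to 19 of a map of 80 bins of 21 kb, numbered from 0, of which 77 have values. The choice was made with earlier results of these data known. Of 2853 bin pairs that could be compared, 364 have at least 1 end in the gene. Bins 8 to 12 (28485087 to 28590087) stand for En2 and Cnpy1 on one side, and bins 22 to 63 (28779087 to 29661087) for the Shh domain on the other. Shh itself was placed in bin 22 and its limb enhancer in bin 63. These placements follow the mm9 map and were not checked against an annotation here.

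Chromosomes fold into domains within which sequences touch often, and the edges of many domains carry sites for CTCF, the protein at which loops extruded by cohesin stop. Shh encodes a secreted signal that patterns the limb and the neural tube, and it shares 1 large domain with its enhancers, among them the ZRS, a limb enhancer in an intron of Lmbr1. Rbm33 encodes an RNA-binding protein that recruits the RNA demethylase ALKBH5, and it lies between that domain and the neighbouring one that holds En2, a homeobox factor of the midbrain and hindbrain, and Cnpy1, a regulator of FGF signalling known from zebrafish midbrain.

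Contacts were measured by 5C, in which primers at HindIII cut sites of 1 region turn ligated DNA pairs into a sequencing library. The 21 libraries came from 2 settings. Mouse E14 embryonic stem cells (ESC) gave 14 libraries, 2 each from the edited lines DCTCF1, DCTCF2, DCTCF3, DCTCF4, DCTCF5 and D35 and from unedited cells, here WT ESC. E11.5 embryos of the CD1 strain gave the other 7, which were 2 of posterior limb bud, 2 of anterior limb bud, 2 of whole D700 embryos and 1 of the embryo body. Each D700 library merges 2 technical replicates, and the name largedel under which it was deposited points to a large deletion. The labels name the lines but give no coordinates for what each lacks, and do not say whether a line is 1 clone or how many embryos were pooled. Titles call the repeats biological replicates without naming separate cultures or litters, so p-values measure the spread between these libraries, which may be technical. For DCTCF2 replicate 2, the name given to its sequencing run points to a technical repeat, unlike its title. This library was counted as biological here.

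The deposited matrices hold contact values without a stated normalization or depth. Totals over pairs 2 or more bins apart ran from 48066.3 to 48797.3 in the 19 libraries without the D700 gap, and contact values below are scaled to 1 common total of such pairs. With shorter distances included, the totals ran from 62111.9 to 106303. They were highest in the 2 DCTCF4 libraries, at 106303 and 100293, against 74525.7 and 82487.8 in WT ESC. The libraries thus differed in signal at short distance, which this scaling leaves out. Along the rows of the Rbm33 bins, 39.04 to 39.34% of neighbouring values were identical in these 19 libraries. Bins 16 and 17 shared 1 value with most of the Shh domain, and so for the most part did bins 18 and 19, so these bins are not independent measurements there.

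Within the gene, neighbouring bins at its far end were joined most strongly. The pair of bins 15 and 16 had the highest value of the 10 pairs in 18 of the 19 libraries, the exception being DCTCF5 replicate 2, where bins 16 and 17 led with 169. In WT ESC this pair averaged 184, against 109 for bins 16 and 17, 95.1 for bins 17 and 18, and 111 for bins 18 and 19. The weakest pair was bins 15 and 19, the ends of the gene, in 17 of the 19 libraries, with a WT ESC mean of 33.4. Distance alone did not order the pairs. In WT ESC bins 16 and 18 averaged 84.1, while bins 15 and 17, equally far apart, averaged 39.8.

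Contact within the gene is given from here on as the mean over its 6 pairs of bins 2 or more apart, without neighbouring bins. It was 58.3 and 49.2 in posterior limb bud, 60.5 and 76.7 in anterior limb bud, and 48.02 in the embryo body. DCTCF1 had 54.4 and 51.3, DCTCF2 49.2 and 48.6, DCTCF3 49.7 and 47.3, DCTCF4 55.3 and 46.1, and DCTCF5 47.9 and 55.5. D35 had 71.03 and 56.5, and WT ESC had 47.1 and 62.2. The 2 WT ESC libraries spanned the means of all other groups except D35 and anterior limb bud, which were higher. With the 4 neighbouring pairs included the means were 86.7 in posterior limb bud, 112.6 in anterior limb bud and 82.7 in WT ESC. Among 16 consecutive segments of 5 bins, the internal contact of Rbm33 ranked between 3 and 11 in ESC libraries and 5 or 6 in the unedited E11.5 libraries.

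**Figure D1:**
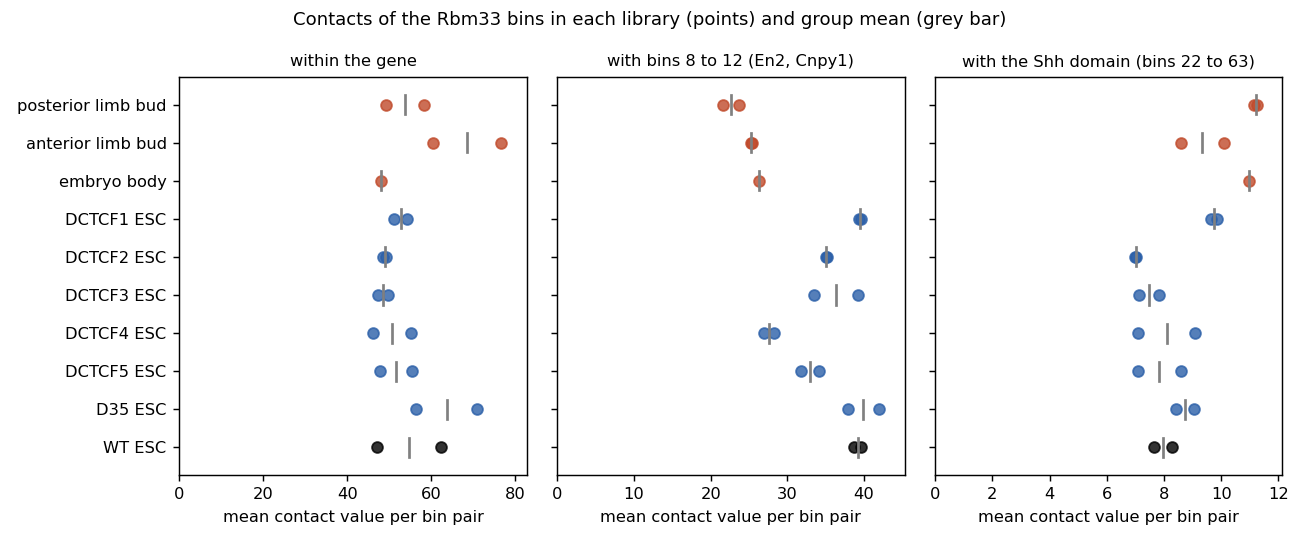
Mean contact value per bin pair (horizontal axes, scaled to a common total) of the Rbm33 bins within the gene (bins 2 or more apart), with bins 8 to 12 and with the Shh domain, for each library (points) and group mean (grey bar), with E11.5 samples in red, edited ESC in blue and WT ESC in black. In the middle panel all 5 E11.5 libraries, at 21.7 to 26.4, lie below all 14 ESC libraries, at 27.0 to 41.9.

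Outside the gene, the Rbm33 bins contacted the En2 side more than the Shh side. Across bins 0 to 14 the mean value was 24.5 and 22.5 in posterior limb bud, 26.1 and 25.5 in anterior limb bud, and 36.1 and 34.8 in WT ESC. Across the Shh domain it was 11.2 in each posterior library, 10.1 and 8.59 in anterior limb bud, and 8.29 and 7.65 in WT ESC. Since the domains lie at different distances, contacts were also paired at 53 equal distances. The mean on the En2 side over that on the Shh side was then 2.03 and 1.83 in posterior limb bud, 2.49 and 2.84 in anterior limb bud, 2.43 in the embryo body, and 3.67 and 4.22 in WT ESC. In the edited ESC lines it ran from 2.45 in DCTCF4 replicate 2 to 4.25 in DCTCF5 replicate 2, so it exceeded 1 in each of the 19 libraries. Against the library mean at the same separation, the posterior limb bud values were 1.09 on the En2 side and 0.849 in the Shh domain, and the WT ESC values 1.46 and 0.662. The gene thus fell on the En2 side of the edge in each of these 19 libraries.

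The drop towards Shh was steep. In WT ESC the mean contact of the gene with the next bins was 54.4 at bin 20, 35.3 at bin 21, 14.5 at bin 22, which holds Shh, and 12.8 at bin 23. It was 8.97 at bin 63, near the ZRS, and 16.5 at bin 65, past the far edge of the Shh domain. On the other side there were peaks of 53.7 at bin 5, 53.2 at bin 8 and 50.2 at bin 14, with 22.6 at each of bins 12 and 13 between them. On these means bin 5, roughly 10 bins away from the gene's near end, was level with bin 20 beside it. Pairs of neighbouring bins are left out, so the means of bins 14 and 20 each lack the pair with the adjoining end of the gene. The likeness of bins 5 and 20 therefore holds only without that pair.

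**Figure D2:**
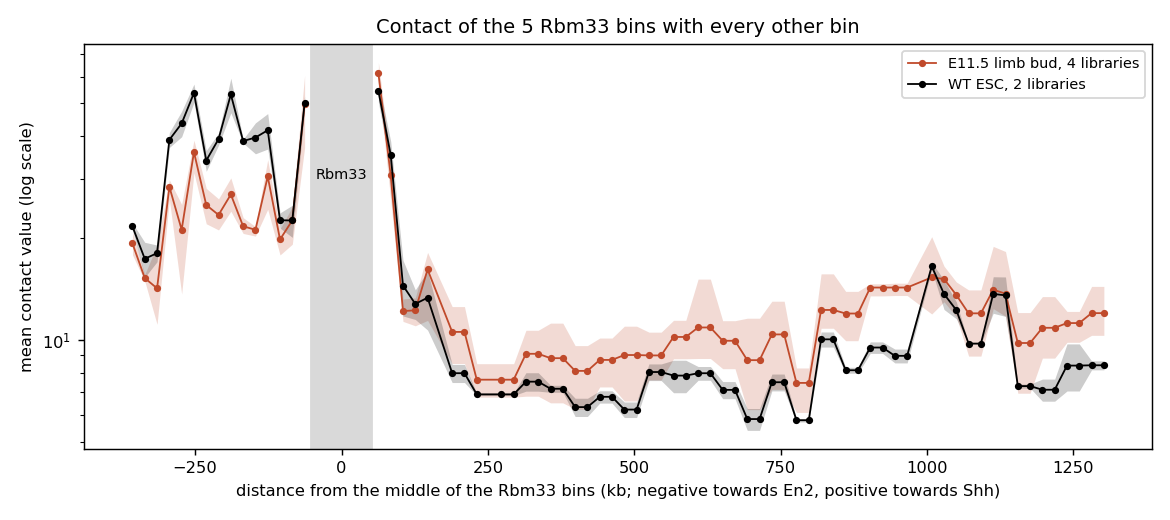
Mean contact value (log scale) of the 5 Rbm33 bins with every other bin against distance in kb, negative towards En2, for limb bud (4 libraries, red) and WT ESC (2 libraries, black), with bands from the lowest to the highest library. Pairs of neighbouring bins are left out. On the En2 side the limb bud line lies below, as at bin 8 with 26.9 against 53.2 in WT ESC, and far into the Shh domain it lies above, as at bin 63 with 14.3 against 8.97.

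The 5 bins differed from each other mainly in how strongly they held the En2 side. Mean contact with bins 0 to 14 was highest for the bin named bin16|mm9|chr5:28653087-28674087 in the files, at 33.9 in posterior limb bud, 37.2 in anterior limb bud and 53.9 in WT ESC. Next came bin15|mm9|chr5:28632087-28653087, at 26.2, 30.6 and 41.8 in these groups, and bin18|mm9|chr5:28695087-28716087, at 22.4, 25.4 and 32.7. The lowest were bin19|mm9|chr5:28716087-28737087, at 20.3, 20.1 and 26.1, and bin17|mm9|chr5:28674087-28695087, at 14.9, 16.1 and 23.3. The order of the 5 bins was thus the same in all 3 groups. Contact with the Shh domain was nearly flat along the gene, from 10.5 for bins 16 and 17 to 11.9 for bins 18 and 19 in posterior limb bud, and from 7.63 for bins 16 and 17 to 8.37 for bin 15 in WT ESC. In WT ESC it was 15.7 for bin 20 and 20.5 for bin 21, the bins between the gene and Shh. The ratio at equal distances in WT ESC was 6.23 for bin 16 and 3.53 for bin 19, against 1.85 for bin 20 and 1.72 for bin 21. All these are levels with no test between bins, since neighbouring bins share values. Pairs of neighbouring bins are left out, so the mean of bin 15 lacks bin 14 and that of bin 21 lacks bin 22.

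**Figure D3:**
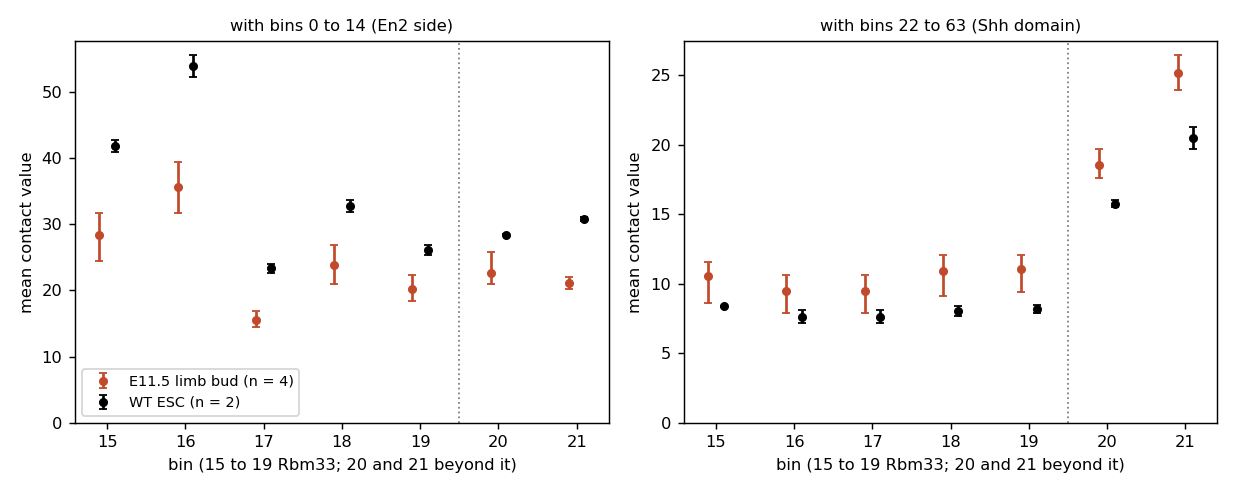
Mean contact value of each Rbm33 bin (15 to 19) and of bins 20 and 21 with bins 0 to 14 (left) and with bins 22 to 63 (right), for limb bud (red, n = 4) and WT ESC (black, n = 2), with bars from the lowest to the highest library. Contact with the En2 side peaks at bin 16 with 53.9 in WT ESC, and contact with the Shh domain steps up at bin 20, outside the gene, to 15.7.

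E11.5 limb bud and WT ESC differed in where Rbm33 placed its contacts. In limb bud, contacts with the En2 side were lower and contacts with segments of the Shh domain, the one with the ZRS among them, were higher. With bins 8 to 12 the posterior limb bud libraries had 23.7 and 21.7 and the anterior ones 25.3 and 25.2, against 38.7 and 39.6 in WT ESC. All 4 limb bud libraries were below both WT ESC libraries. The embryo body, at 26.4, lay with the limb buds. Across all unedited E11.5 libraries the lowest, median and highest values were 21.7, 25.2 and 26.4, and across the 14 ESC libraries 27.0, 36.5 and 41.9, so these did not overlap. Over the library mean at the same separation they did, with 0.884 to 1.03 in the unedited E11.5 libraries and 0.963 to 1.48 in the ESC libraries. On that scale the limb bud libraries, at 0.884 to 0.949, were still below WT ESC, at 1.33 and 1.39.

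The map was divided into 16 segments of 5 bins, and limma was run on the log2 mean contact of each pair of segments, called a block here, with Benjamini-Hochberg adjustment and a threshold of 0.05. Between limb bud and WT ESC 20.6% of all blocks were called, 14.7% higher in limb bud and 5.88% lower. Of the 16 blocks that involve Rbm33, 8 were called, 5 of them higher and 3 lower. The median log2 difference was 0.28 over the Rbm33 blocks and 0.04 over all blocks.

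The largest fall was with bins 5 to 9, the segment that holds the start of the En2 bins. Limb bud averaged 26.5 (25.0 to 28.3, n = 4) and WT ESC 43.6 (41.04 to 46.3, n = 2), a log2 difference of -0.72 (limma adjusted p = 0.00363). Contact with bins 0 to 4 was 19.6 in limb bud and 27.9 in WT ESC (log2 difference -0.51, limma adjusted p = 0.0165). With bins 10 to 14, which hold the rest of the En2 and Cnpy1 bins, limb bud had 27.8 and WT ESC 34.6 (log2 difference -0.32, limma adjusted p = 0.0476). Fewer contacts were thus seen with the whole stretch from bin 0 to bin 14.

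With bins 60 to 64, which include the ZRS bin, limb bud had 14.3 (14.0 to 14.5) and WT ESC 9.21 (9.19 to 9.24), a log2 difference of 0.63 (limma adjusted p = 0.00363). The other 3 Shh domain segments that rose were bins 45 to 59. Bins 45 to 49 had 10.3 in limb bud and 7.59 in WT ESC, bins 50 to 54 had 9.11 in limb bud and 6.48 in WT ESC, and bins 55 to 59 had 11.2 in limb bud and 8.41 in WT ESC (limma adjusted p = 0.0193, 0.0224 and 0.0333). Bins 25 to 29, 35 to 39 and 40 to 44, nearer the gene, differed by 0.32, 0.33 and 0.34 and did not pass (limma adjusted p = 0.0541, 0.0643 and 0.0571). A difference between near and far segments was not tested. Beyond the Shh domain, bins 75 to 79 rose as well, with 11.4 in limb bud and 8.13 in WT ESC (log2 difference 0.49, limma adjusted p = 0.0165).

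Contacts within the gene and with the segment beside it on the Shh side did not pass the test. The block of bins 20 to 24, with Shh in it, had 25.0 in limb bud and 24.8 in WT ESC (log2 difference 0.01, limma adjusted p = 0.955). Contact within the gene was 61.0 in limb bud (49.1 to 76.5) and 54.5 in WT ESC (46.98 to 62.1), with an adjusted p of 0.504 by limma. At bin 63 alone the posterior libraries had 14.4 and 14.5, the anterior ones 14.7 and 13.5 and the embryo body 18.2, against 8.55 and 9.40 in WT ESC. All 5 unedited E11.5 libraries, from 13.5 upwards, exceeded all ESC libraries, which reached 12.1. With bins outside Rbm33, bin 63 averaged 18.7 (18.1 to 19.1) in limb bud and 17.0 (16.2 to 17.8) in WT ESC. Past the Shh domain, over bins 66 to 79, the lowest, median and highest values were 10.2, 12.3 and 14.0 in the unedited E11.5 libraries, and 7.94, 9.71 and 12.2 in the ESC libraries, which overlapped.

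The calls for bins 5 to 9 and 60 to 64 held whichever of the 6 libraries was left out, with limma adjusted p from 0.00359 to 0.0211 and from 0.00478 to 0.0248. The call for bins 10 to 14 was lost in each of those 6 cases, and the number of called Rbm33 blocks ranged from 3 without WT ESC replicate 1 to 10. It was 4 without posterior replicate 1, 5 without posterior replicate 2 and 4 without WT ESC replicate 2, the last leaving libraries of 1 run year only. Bins 0 to 4 and 75 to 79 lost their calls without WT ESC replicate 1 (adjusted p = 0.0658 and 0.0977), and bins 45 to 49 without posterior replicate 1 (0.061) or WT ESC replicate 2 (0.209), all by limma. Bins 50 to 54 lost theirs without either posterior or either WT ESC library, and bins 55 to 59 in each case except without anterior replicate 2. Over the library mean at the same separation, bins 50 to 54 and 55 to 59 did not pass (limma adjusted p = 0.0588 and 0.431). Bins 55 to 59 did not pass under median scaling (0.0784), nor bins 10 to 14 with neighbouring pairs included (0.117). Strain, stage and tissue all differ between these groups and cannot be told apart.

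For single bin pairs in the same comparison, limma called 2 of 2853 (0.0701%) and no pair with Rbm33. At an unadjusted p under 0.05 there were 404 pairs, 102 of them with Rbm33. The smallest p among these had bins 10 and 15 and bins 9 and 16 (limma adjusted p = 0.0834 each) and bins 8 and 15 (0.0978), all between the gene and the En2 and Cnpy1 bins. The insulation value of a bin, the log2 mean contact between the 5 bins before it and the 5 after it relative to the library mean, was also compared. Of 70 bins 22.9% were called by limma, and none of the 5 Rbm33 bins was, with 23 bins and no Rbm33 bin at an unadjusted p under 0.05. The log2 differences in the gene ran from -0.18 at bin 15 to 0.17 at bin 17.

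**Figure D4:**
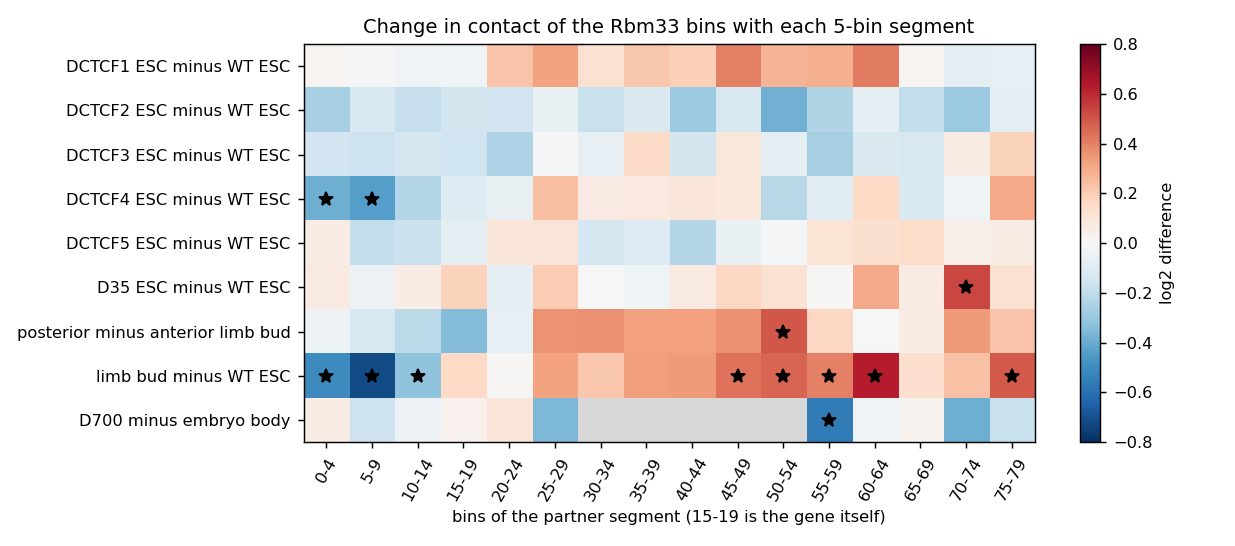
Log2 difference in mean contact (colour) of the Rbm33 bins with each segment of 5 bins (columns, 15-19 being the gene itself) in each comparison (rows, first group minus second), with stars at adjusted p under 0.05 by limma and grey where D700 has no bins. The limb bud row holds 8 stars, with -0.72 at bins 5-9 and 0.63 at bins 60-64, and the DCTCF4 row holds 2 at its left end.

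Posterior limb bud cells at this stage transcribe Shh and anterior cells do not, and the pair of tissues asks whether contacts around the locus follow that. The share of the gene's outside contacts that reached the Shh domain was 41.6 and 42.3% in posterior limb bud, against 38.5 and 35.4% in anterior limb bud. Both posterior libraries exceeded both anterior ones, and both tissues were above WT ESC, at 30.3 and 29.02%. How often other segments separate the tissues in this way is not given here. In the fragment counts described below, the share overlapped, with 38.4 and 35.1% in posterior limb bud and 37.8 and 34.6% in anterior limb bud. The mean value with the Shh domain was 11.2 in each posterior library, against 10.1 and 8.59 in the anterior ones.

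Limma called 11% of all blocks (9.56% higher in posterior limb bud), and 1 of the 16 Rbm33 blocks, a share below that of all blocks. This was the block with bins 50 to 54, at 10.6 (10.5 to 10.7) in posterior limb bud and 7.58 (6.54 to 8.62) in anterior limb bud, a log2 difference of 0.50 (limma adjusted p = 0.0468). The call was lost without anterior replicate 2 (log2 difference 0.30, adjusted p = 0.398), without either posterior library (0.0947 and 0.184) and when each library was scaled to its median (0.144). Over the Rbm33 blocks the median log2 difference was 0.20, and over all blocks 0.08.

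Contact within the gene was 53.5 in posterior limb bud (48.98 to 58.0) and 68.3 in anterior limb bud (60.3 to 76.3). The 2 ranges did not overlap, and the log2 difference of -0.35 did not pass the test (limma adjusted p = 0.133). Scaling to the median lowered all log2 differences of this comparison by 0.20, and under it contact within the gene passed, at -0.54 (limma adjusted p = 0.00738), as did contact with bins 10 to 14, at -0.41 (0.0434). Over the library mean at the same separation, the ranges overlapped, with 0.938 to 1.11 in posterior limb bud and 1.05 to 1.13 in anterior limb bud. The log2 difference was then -0.10 (limma adjusted p = 0.786). The pair of bins 15 and 16 had 206 and 190 in posterior limb bud, against 262 and 280 in anterior limb bud. With bins 60 to 64 the tissues had the same mean, 14.2 each (log2 difference -0.00), and bins 5 to 9, 10 to 14 and 20 to 24 differed by -0.13, -0.21 and -0.06, with limma adjusted p from 0.277 to 0.986 over these blocks.

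No bin pair out of 2853 and no insulation bin out of 70 was called by limma between the tissues (0% each). At an unadjusted p under 0.05 there were 218 pairs, 16 with Rbm33, and 6 insulation bins, none in the gene. Among Rbm33 pairs the smallest p had bins 11 and 17, with 15.0 in posterior and 26.3 in anterior limb bud, and bins 16 and 17 with bin 65, which share 1 value, with 9.64 in posterior and 21.6 in anterior limb bud (limma adjusted p = 0.558). Insulation across the 5 bins differed by -0.10 to 0.06 on the log2 scale.

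The limb bud libraries were also deposited as counts per pair of HindIII fragments. The gene holds 26 of 343 fragments, 730 to 7346 bp long, assigned by their midpoint. Totals were 749738 and 1400833 counts in posterior limb bud, and 1022801 and 1383595 in anterior limb bud. Of the counts that left the gene, 14.2% (95% interval 14.0 to 14.5%) and 14.5% (14.3 to 14.7%) reached the En2 and Cnpy1 bins in posterior limb bud, against 14.1% (13.9 to 14.4%) and 15.4% (15.1 to 15.6%) in anterior limb bud. The groups overlapped. For the Shh domain the shares were 38.4% (38.1 to 38.8%) and 35.1% (34.8 to 35.4%) in posterior limb bud, against 37.8% (37.5 to 38.1%) and 34.6% (34.3 to 34.9%) in anterior limb bud. Here too the groups overlapped, unlike for the contact values, and libraries of 1 tissue lay farther apart than the tissues. By replicate number the Shh domain shares were 38.4 and 37.8% in replicate 1, and 35.1 and 34.6% in replicate 2. Posterior limb bud was the higher in each. For the En2 and Cnpy1 bins it was higher in replicate 1 and lower in replicate 2. Whether replicate numbers pair these libraries was not tested on these shares. The intervals are exact Clopper-Pearson and cover counting error only, since PCR reads are not independent molecules.

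Of 17795 fragment pairs with enough counts, 2668 with Rbm33, edgeR's quasi-likelihood test called none (0%), with 1001 pairs and 161 Rbm33 pairs at an unadjusted p under 0.05. DESeq2 called 71 of 27591 pairs, 6 of them with Rbm33. The Rbm33 pairs of smallest p had no count in either posterior library. Fragment Shh_120 (28705775 to 28710085), in the gene, and Shh_31 (28419609 to 28428926), on the En2 side, had 0 and 0 counts together in posterior limb bud, against 75 and 56 in anterior limb bud. Against an assumed floor of 3 counts per posterior library, the anterior mean was 18.5-fold higher. Shh_121 (28710086 to 28710865), in the gene, and Shh_46 (28486217 to 28491939), among the En2 bins, had 0 and 0 counts in posterior limb bud, against 32 and 81 in anterior limb bud. Shh_95 (28631581 to 28635856), at the edge of the gene, and Shh_476 (29766525 to 29768740), beyond the Shh domain, had 0 and 0 in posterior limb bud, against 68 and 32 in anterior limb bud. Against the same floor the anterior mean was 14.6-fold higher for each of these pairs. All 3 pairs were picked by smallest p and passed the count filter through the anterior libraries alone. The folds are therefore no evidence of a difference between the tissues. None of the 3 passed edgeR (adjusted p = 0.755 each), and all 3 passed DESeq2 (adjusted p from 0.00343 to 0.0196).

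The lines DCTCF1 to DCTCF5 and D35 were each set against WT ESC, and all ESC groups shared 1 estimate of the spread. These comparisons share the WT ESC libraries. DCTCF4 had the most calls at Rbm33, all with the En2 side. With bins 8 to 12 its libraries had 28.2 and 27.0, the lowest of the 14 ESC libraries, against 38.7 and 39.6 in WT ESC. Contact with the Shh domain was 7.10 and 9.08 in DCTCF4, on both sides of 8.29 and 7.65 in WT ESC.

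Limma called 5.15% of blocks for DCTCF4 (2.94% lower), among them 2 of the 16 Rbm33 blocks, both lower. With bins 5 to 9 DCTCF4 had 32.2 (31.4 to 33.1) and WT ESC 43.8 (41.2 to 46.4), a log2 difference of -0.44 (limma adjusted p = 0.0211). With bins 0 to 4 it had 21.3 (20.9 to 21.7) and WT ESC 27.98 (27.1 to 28.8), a log2 difference of -0.39 (limma adjusted p = 0.036). Bins 10 to 14 had 29.5 in DCTCF4 and 34.8 in WT ESC, and did not pass (adjusted p = 0.271 by limma). Contact within the gene, with bins 20 to 24 and with bins 60 to 64 differed by -0.10, -0.06 and 0.16, with limma adjusted p from 0.629 to 0.771.

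Limma called 0.771% of single pairs (0.666% lower), and 6 of the 364 Rbm33 pairs, all lower in DCTCF4, 4 of them with bin 8. Bins 8 and 15 had 24.2 (24.0 to 24.5) in DCTCF4 and 67.5 (62.8 to 72.1) in WT ESC, a log2 difference of -1.32 (limma adjusted p = 0.00257). Bins 8 and 19 had 14.7 (12.4 to 16.9) in DCTCF4 and 42.9 (36.2 to 49.6) in WT ESC, a difference of -1.30 (0.00268). Bin 8 with bins 17 and 18 had 12.4 and 16.3 in DCTCF4, against 34.3 and 45.8 in WT ESC (limma adjusted p = 0.012 and 0.0217). The other 2 pairs were bins 2 and 17, with 6.15 in DCTCF4 and 15.9 in WT ESC, and bins 10 and 19, with 12.7 in DCTCF4 and 25.5 in WT ESC (limma adjusted p = 0.0217 and 0.0301).

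Bin 8 was lower in DCTCF4 beyond the gene too. Its mean contact with bins outside Rbm33 was 18.97 (18.8 to 19.2) in DCTCF4 and 28.7 (24.9 to 32.6) in WT ESC, and with the gene it was 21.7 in DCTCF4 and 53.2 in WT ESC. This was not particular to bin 8. Outside Rbm33, bin 10 had 13.2 (12.5 to 13.8) in DCTCF4 and 17.1 (17.0 to 17.3) in WT ESC. Bin 2 had 12.4 (11.7 to 13.2) in DCTCF4 and 13.8 (13.2 to 14.4) in WT ESC. When bin 8 was left out, a choice made after seeing the data, bins 5 to 9 no longer passed (log2 difference -0.27, limma adjusted p = 0.204), while bins 0 to 4 did (-0.42, 0.029). Both block calls were lost without any 1 of the 4 libraries, DCTCF4 replicate 1 or 2 or WT ESC replicate 1 or 2, with limma adjusted p from 0.0594 to 0.217 and from 0.0699 to 0.248. The number of called Rbm33 pairs was 0 without WT ESC replicate 1, where bins 8 and 15 had a limma adjusted p of 0.0524. It was 3 without DCTCF4 replicate 2 and 17 without DCTCF4 replicate 1. With run year as a covariate 0 blocks and 2 pairs were called, with log2 differences of -0.39 for bins 5 to 9 and -0.38 for bins 0 to 4 (limma adjusted p = 0.161 and 0.165). Both DCTCF4 libraries are from the later of the 2 run years of WT ESC. For insulation, limma called 24.3% of 70 bins and none of the 5 in the gene, with 23 bins and 1 Rbm33 bin at an unadjusted p under 0.05.

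In D35 the share of Rbm33 features called was close to that of all features. Limma called 5.15% of blocks (2.94% higher), 1 of the 16 with Rbm33. This was bins 70 to 74, with 14.2 (13.4 to 15.0) in D35 and 9.81 (9.05 to 10.6) in WT ESC, a log2 difference of 0.53 (limma adjusted p = 0.0167). The neighbouring bins 65 to 69 and 75 to 79 differed by 0.06 and 0.12 and did not pass (limma adjusted p = 0.884 and 0.68). Among single pairs 1.12% were called (0.54% higher), 4 of 359 with Rbm33. The 4 are 1 shared value, of bins 18 and 19 with bins 70 and 71. It was 34.9 (30.3 to 39.4) in D35 and 15.3 (13.8 to 16.7) in WT ESC, a log2 difference of 0.99 (limma adjusted p = 0.00533).

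With bins other than Rbm33, bin 70 was not higher in D35. It averaged 16.3 there and 19.1 in WT ESC, while with the gene it averaged 23.2 in D35 and 13.7 in WT ESC. The block call was lost without D35 replicate 1 (limma adjusted p = 0.163), D35 replicate 2 (0.0553) or WT ESC replicate 2 (0.179), and under median scaling (0.067). The pair calls were lost without D35 replicate 1 (0.117) or WT ESC replicate 2 (0.101). Run year and group cannot be told apart here, because both D35 libraries come from a year that holds no other library.

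Within the gene D35 had 62.0 (55.0 to 69.1) and WT ESC 54.8 (47.1 to 62.5), and with bins 60 to 64 it had 11.4 and WT ESC 9.25 (limma adjusted p = 0.537 and 0.22). Bin 65 was nearly empty in D35, with a mean of 2.00 outside Rbm33 against 21.2 in WT ESC, and the fits left it out. The levels per library that follow keep it in the common total. On that scale contact within the gene was 71.03 and 56.5 in D35. At bin 63 alone the D35 libraries had 12.1 and 11.8, the highest of the ESC libraries, against 8.55 and 9.40 in WT ESC. With bins outside Rbm33, bin 63 was higher in D35 too, at 20.2 (19.8 to 20.7) against 17.0 (16.2 to 17.8) in WT ESC. Contact with bins 8 to 12 was 41.9 and 37.9 in D35, around the WT ESC values. For insulation 25.7% of 70 bins were called by limma and no Rbm33 bin, with 23 bins and no Rbm33 bin at an unadjusted p under 0.05.

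In DCTCF1 insulation weakened at the Shh end of the gene. Limma called 8.57% of 70 bins, all higher, and 2 of the 5 Rbm33 bins. At bin 19 the value was -0.02 (-0.04 and -0.00) in DCTCF1 and -0.37 (-0.40 and -0.33) in WT ESC, a log2 difference of 0.35 (limma adjusted p = 0.0079). At bin 18 it was -0.04 in DCTCF1 and -0.28 in WT ESC, a difference of 0.24 (0.0364). More contact thus crossed these bins relative to the rest of the region in DCTCF1. Bins 15 to 17 differed in the same direction, by 0.11, 0.17 and 0.14, and did not pass (limma adjusted p from 0.184 to 0.271).

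Windows of neighbouring bins share contacts, so the calls are not independent. Without DCTCF1 replicate 1, DCTCF1 replicate 2 or WT ESC replicate 2 no Rbm33 bin was called, and without WT ESC replicate 1 bin 19 alone was (limma adjusted p = 0.0112). With a window of 3 bins neither passed, at 0.06 for bin 19 and 0.132 for bin 18.

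The blocks of DCTCF1 ran the same way without passing. Limma called 2.21% of blocks (0.735% higher and 1.47% lower) and no Rbm33 block, with 30 blocks and 4 Rbm33 blocks at an unadjusted p under 0.05. With bins 60 to 64 DCTCF1 had 12.3 and WT ESC 9.24 (log2 difference 0.41), and with bins 20 to 24 it had 29.1 and WT ESC 24.9 (0.23), with limma adjusted p of 0.159 and 0.206. The share of outside contacts in the Shh domain was 34.5 and 33.6% in DCTCF1, above 30.3 and 29.02% in WT ESC. At bin 22, with Shh, the libraries had 17.6 and 19.3 in DCTCF1, against 17.2 and 11.8 in WT ESC. The blocks with bins 5 to 9, 10 to 14 and within the gene differed by -0.01 to -0.04 (limma adjusted p from 0.923 to 0.957). Over the Rbm33 blocks the median log2 difference was 0.16, and over all blocks 0.03. Median scaling lowered every log2 difference of this comparison by 0.15. No bin pair was called (0%), with 222 pairs and 27 Rbm33 pairs at an unadjusted p under 0.05 by limma.

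In DCTCF2 the difference had the opposite sign and covered most of the gene. Limma called 22.9% of insulation bins (11.4% lower), among them 4 of the 5 Rbm33 bins, all lower. At bin 15 the value was -0.28 (-0.31 and -0.25) in DCTCF2 and 0.02 (0.01 and 0.04) in WT ESC, a log2 difference of -0.30 (limma adjusted p = 0.00731). Bins 16, 17 and 18 had -0.38, -0.31 and -0.53 in DCTCF2, against -0.10, -0.07 and -0.28 in WT ESC (limma adjusted p = 0.0267, 0.0251 and 0.0153). Bin 19 had -0.55 in DCTCF2 and -0.37 in WT ESC and did not pass (0.0582). Relative to the rest of the region, less contact thus crossed these bins in DCTCF2. At each of the 5 bins both DCTCF2 libraries were below both WT ESC libraries. Windows of neighbouring bins share contacts, so the 5 bins are not independent observations. How often bins elsewhere separate the groups in this way is not given here.

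**Figure D5:**
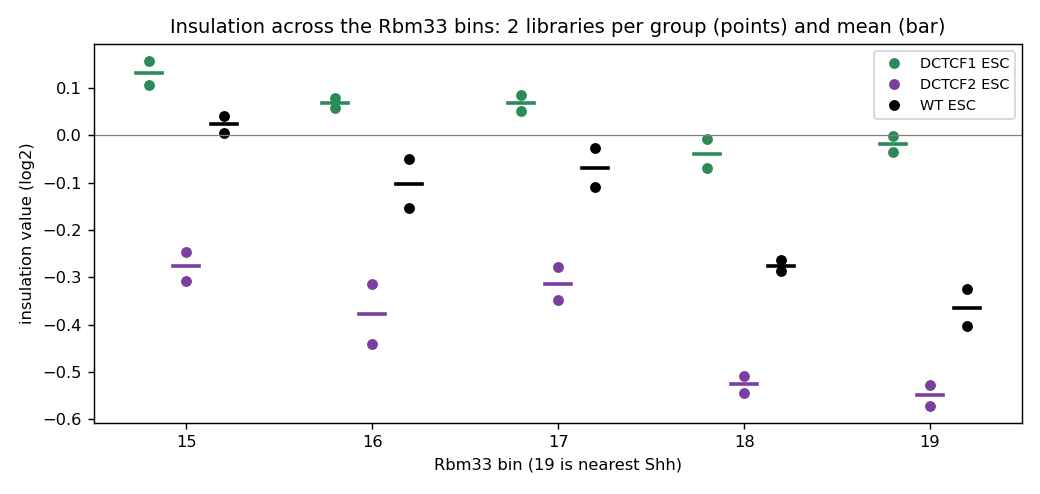
Insulation value (log2, vertical axis) at each of the 5 Rbm33 bins in DCTCF1 ESC (green), DCTCF2 ESC (purple) and WT ESC (black), with 2 libraries per group as points and the mean as a bar. At bin 19 DCTCF1 has a mean of -0.02, DCTCF2 -0.55 and WT ESC -0.37, and at bin 15 DCTCF2 has -0.28 and WT ESC 0.02.

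None of the 4 calls held in every case, and they rest on DCTCF2 libraries whose spread may be technical. Without DCTCF2 replicate 1, bins 15 and 16 stayed called, without DCTCF2 replicate 2 none, without WT ESC replicate 1 bin 15, and without WT ESC replicate 2 bins 15 and 18. With run year as a covariate bins 15 and 18 passed, and with a window of 3 bins none did, with limma adjusted p from 0.0548 to 0.0956.

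For contact levels, limma called 0.735% of blocks in DCTCF2 and no Rbm33 block, with 26 blocks and 3 Rbm33 blocks at an unadjusted p under 0.05. With bins 50 to 54 DCTCF2 had 4.99 and WT ESC 6.50 (log2 difference -0.38, limma adjusted p = 0.169). The Shh domain as a whole had 7.00 and 7.03 in DCTCF2, against 8.29 and 7.65 in WT ESC, and bin 22 had 10.7 and 10.9 in DCTCF2, against 17.2 and 11.8 in WT ESC. With bins 8 to 12 both DCTCF2 libraries had 35.1, below the 38.7 and 39.6 of WT ESC. The 5 blocks given for every comparison differed by -0.08 to -0.18 (limma adjusted p from 0.336 to 0.776). The median log2 difference was -0.16 over the Rbm33 blocks and -0.07 over all blocks, and median scaling raised every value by 0.17, which turned 4 of those 5 positive. Of the bin pairs 0.0351% were called and none with Rbm33, with 275 pairs and 32 Rbm33 pairs at an unadjusted p under 0.05.

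DCTCF3 and DCTCF5 had no called block, pair or insulation bin at Rbm33. For DCTCF3 limma called 0% of blocks (8 and 1 with Rbm33 at an unadjusted p under 0.05), 0% of pairs (200 and 32) and 11.4% of insulation bins (8.57% higher and 2.86% lower), none of them in the gene. At an unadjusted p under 0.05 there were 26 insulation bins, 4 of them in the gene. Its insulation in the gene was lower by 0.11 to 0.21 on the log2 scale, with limma adjusted p from 0.0577 to 0.361. The Rbm33 pair of bins 18 and 67 had 4.74 in DCTCF3 and 14.2 in WT ESC, and bins 18 and 23 had 4.77 in DCTCF3 and 12.9 in WT ESC (limma adjusted p = 0.128 and 0.154). With bins 8 to 12 its libraries had 39.2 and 33.5, around and below WT ESC.

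For DCTCF5 limma called 0% of blocks (12 and no Rbm33 block at an unadjusted p under 0.05), 0% of pairs (159 and 11) and 20% of insulation bins (20 and none in the gene). Its contact with bins 8 to 12 was 34.2 and 31.8, below WT ESC, and with the Shh domain 8.58 and 7.09, overlapping WT ESC. Its share in the Shh domain was 31.6 and 28.04%, which overlapped the 30.3 and 29.02% of WT ESC. Without DCTCF5 replicate 1, 2 Rbm33 pairs were called, and without DCTCF5 replicate 2, insulation bin 19 was (log2 difference 0.23, limma adjusted p = 0.0267).

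D700 embryos lack values for bins 27 to 58 (28884087 to 29556087), a gap of 672 kb inside the Shh domain, and were set against the embryo body on the bins both have. D700 libraries come from whole embryos and the body library from embryonic bodies, sequenced in different years, so tissue, run year and group cannot be told apart. The spread came from the limb bud and D700 libraries, and the single library of the body carries no spread of its own and was taken to vary as they do. Scaled over the shared bins, contact within the gene was 64.6 and 65.6 in D700 and 63.6 in the body. With bins 8 to 12 D700 had 27.9 and 33.6, and the body 34.9. With the bins on the near side of the gap, 22 to 26, it had 18.0 and 20.0, and the body 16.8. At bin 63, on the far side, it had 18.6 and 19.4, and the body 24.1. If the gap is the large deletion that the deposited name points to, bins beyond it lie nearer the gene in D700 than in the body. Separations were counted by bin number and not adjusted for that.

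Limma called 10.9% of 64 blocks (4.69% lower) and 1 of the 11 Rbm33 blocks. This was contact with bin 59, the only bin of its segment left, with 13.3 (13.0 to 13.7) in D700 and 19.7 in the body, a log2 difference of -0.56 (limma adjusted p = 0.0471). It was lost under every alternative, including without D700 replicate 1 or 2, with limma adjusted p from 0.0575 to 0.3. With 1 body library, a D700 difference and variation of that library cannot be told apart, for this block or any other. Within the gene and with bins 5 to 9, 10 to 14, 20 to 24 and 60 to 64 the log2 differences were 0.03, -0.17, -0.05, 0.10 and -0.03, with limma adjusted p from 0.776 to 0.952. Of 993 pairs 0.101% were called and none with Rbm33 (81 and 11 at an unadjusted p under 0.05), and of 30 insulation bins none (1, outside the gene, at an unadjusted p under 0.05).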

How the data were processed

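The 21 5C libraries come from 23 samples, 14 ESC libraries and 7 of E11.5 embryos, grouped by sample title. The authors deposited, per bin pair, a contact value used here as signal. Neither its normalization nor the aligner and software used are stated in the labels or headers. They also deposited whole-number counts per fragment pair for the limb buds. The build, mm9, is given per the file headers. Bins 25, 29 and 64 have no values, and bin 65 was left out for D35. 33 deposited files were not used, among them sums over replicates.

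Libraries were scaled to 1 total over pairs 2 or more bins apart. Blocks, bin pairs and insulation values were compared with limma 3.58.1 in R 4.3.3, each on the log2 scale, over all features. Bin pairs had to be above 0 in 50% of libraries, with the 5th percentile as pseudocount (4.55 for DCTCF lines, 4.54 for D35, 5.34 for limb bud parts, 5.17 for limb bud against WT ESC, 8.55 for D700). The fold differences of low pairs are understated by it. Counts were compared with edgeR 4.0.16 (TMM, filterByExpr) and DESeq2 1.42.0. The procedures were tested on simulated data.

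Always named were contact within the gene, with bins 5 to 9, 10 to 14, 20 to 24 and 60 to 64, and insulation at the 5 bins. Other blocks past the threshold were named up to 6, pairs up to 8, or the 3 of smallest p where none passed. Members and lists were chosen with earlier results of these data known. Replicate numbers were not taken as pairs in the main fits. Correlations of block deviations between same-numbered libraries ran from -0.56 to 0.39 over 21 pairs of ESC groups, 9 of them above 0.1. The limb bud parts gave 0.03. No sequence is printed, because no genome of this build was used.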

Additional observations from a re-analysis of the deposited data

How the results depend on the processing

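Of 243 recomputed counts of called Rbm33 features, 187 stayed within 1.5 times their value, 46 fell below and 10 rose above it. None of 74 named differences that changed sign was called in either setting. The cause of these changes was not tested, and the depth of the matrices is unknown.

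With each library scaled to its median, Rbm33 blocks called were 0 for DCTCF4, D35 and D700 and 2 for posterior against anterior limb bud, and 1 pair was called for limb bud against WT ESC. This scaling moved all log2 differences by -0.15 for DCTCF1, 0.17 for DCTCF2, -0.12 for D35, -0.20 for posterior against anterior limb bud and -0.10 for limb bud against WT ESC. Signs changed for DCTCF2 within the gene (0.025) and with bins 5 to 9 (0.051), 20 to 24 (0.020) and 60 to 64 (0.095). They also changed for D35 with bins 10 to 14 (-0.065), for limb bud against WT ESC with bins 20 to 24 (-0.091), and for D700 with bins 10 to 14 (0.0071) and 60 to 64 (0.021).

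Over the library mean at the same separation, 1 block was called for DCTCF1, with bins 20 to 24, and 0 for D700. Signs changed for DCTCF1 within the gene (0.18) and with bins 5 to 9 (0.010) and 10 to 14 (0.074), for DCTCF2 with bins 60 to 64 (0.098), for D35 with bins 5 to 9 (0.0075) and 20 to 24 (0.035), for posterior against anterior limb bud with bins 20 to 24 (0.13) and for D700 within the gene (-0.0086).

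With neighbouring pairs included, 0 blocks were called for D700, and the sign within the gene changed for DCTCF4 (0.089) and D35 (-0.015). With repeated values counted once, 0 blocks were called for D35, for posterior against anterior limb bud and for D700. With bin 8 left out, 1 block and 2 pairs were called for DCTCF4. With all unedited E11.5 libraries set against D700, 0 blocks were called, and signs changed within the gene (-0.19), with bins 20 to 24 (-0.026) and 60 to 64 (0.12) and for insulation at bin 18 (-0.098).

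With a window of 3 bins, 0 insulation bins were called for DCTCF1 and DCTCF2. Signs changed for DCTCF5 at bins 15 (0.036) and 17 (-0.016), for D35 at bin 19 (0.047), for limb bud against WT ESC at bin 16 (0.082) and for D700 at bins 18 (-0.080) and 19 (-0.019). With run year as a covariate, 2 insulation bins were called for DCTCF2, and 0 blocks and 2 pairs for DCTCF4, and the sign at bin 17 changed for DCTCF5 (-0.0043). DESeq2 called 6 Rbm33 fragment pairs. With the gene taken as bins 15 to 20, the Shh domain share of DCTCF2 and of DCTCF4 lay above WT ESC, where it had overlapped. Contact with the Shh domain fell below WT ESC for DCTCF3 and overlapped it for D35, which had been above. Contact of DCTCF1 with bins 8 to 12 lay above WT ESC, where it had overlapped. The limb bud positions did not change. With neighbouring pairs included, contact within the gene lay below WT ESC for DCTCF1.

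Replicate numbers were not taken as pairs in the main fits, though the limb bud fragment shares in the Shh domain lay closer by replicate number than by tissue. With the replicate block, 1 block was called for DCTCF4 and 0 for D700, the value at insulation bin 16 became 0.013 for D700, and no other count of called Rbm33 features moved by over 1.5 times.

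Without 1 library at a time, the number of called blocks was 0 for DCTCF4, 0 to 1 for D35, 0 to 1 for posterior against anterior limb bud, 3 to 10 for limb bud against WT ESC and 0 for D700. The number of called pairs was 0 to 17 for DCTCF4, 0 to 2 for DCTCF5, 0 to 4 for D35 and 0 to 2 for posterior against anterior limb bud. The number of called insulation bins was 0 to 1 for DCTCF1, 0 to 2 for DCTCF2, 0 to 1 for DCTCF5 and 0 to 1 for limb bud against WT ESC. The log2 difference in contact within the gene ran from -0.24 to 0.16 for DCTCF1, -0.35 to 0.055 for DCTCF2, -0.36 to 0.042 for DCTCF3, -0.30 to 0.10 for DCTCF4, -0.27 to 0.13 for DCTCF5, -0.020 to 0.39 for D35 and -0.044 to 0.36 for limb bud against WT ESC. Contact with bins 5 to 9 differed by -0.097 to 0.076 for DCTCF1, -0.13 to 0.039 for D35 and -0.36 to 0.023 for D700. Contact with bins 10 to 14 differed by -0.095 to 0.035 for DCTCF1, -0.038 to 0.15 for D35 and -0.11 to 0.016 for D700. Contact with bins 60 to 64 differed by -0.035 to 0.35 for DCTCF4, -0.031 to 0.021 for posterior against anterior limb bud and -0.084 to 0.017 for D700. Insulation at bin 16 differed by -0.082 to 0.023 for DCTCF4, -0.20 to 0.099 for DCTCF5, -0.21 to 0.011 for posterior against anterior limb bud, -0.057 to 0.055 for limb bud against WT ESC and -0.048 to 0.0053 for D700. Insulation at bin 17 differed by -0.10 to 0.043 for DCTCF4 and -0.017 to 0.067 for DCTCF5. Insulation at bin 19 differed by -0.010 to 0.071 for DCTCF4, -0.040 to 0.026 for D35 and -0.0065 to 0.12 for posterior against anterior limb bud. Insulation at bin 15 differed by -0.14 to 0.012 for posterior against anterior limb bud and -0.025 to 0.063 for D700. Insulation at bin 18 differed by -0.18 to 0.0042 for posterior against anterior limb bud.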
